A study of Mus musculus with 12 samples.

Results

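Of the 2643 m6A peaks listed for HT22 cells, 31 were written by the authors' table as 2 or more separate blocks on the genome. These 31 peaks, 1.17% of the table, are described here. They were taken by a single rule, a field of block starts that holds at least 2 entries, and the rule used no read count. The other 2612 peaks were listed as 1 block. The paper reports a larger number of m6A peaks than this table lists. Shares of all peaks below therefore refer to the 2643 listed peaks only.

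N6-methyladenosine (m6A) is a methyl mark placed on adenosines of mRNA, mostly in a short motif, and it is read by proteins that act on splicing, export, translation and decay of the transcript. An antibody to m6A pulls down fragments of mature mRNA, so an enriched stretch that lies over an exon junction is continuous in the RNA and broken by an intron on the genome. The mark is best known from long internal exons and from the region near stop codons and in 3′ UTRs.

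The study asked how mesaconitine (MA), a diterpenoid alkaloid of Aconitum plants, changes m6A in HT22, an immortalized mouse hippocampal neuron line. Methylated RNA immunoprecipitation sequencing (MeRIP-seq) gave 12 libraries in 4 groups of 3, namely IP and input of cells exposed to 800 μM MA for 72 h, and IP and input of control cells without MA. All groups are the same line, and the labels do not say whether the 3 libraries of a group came from separate cultures. The deposited reads per peak are pooled over the libraries of a group, so each group gives 1 value per peak, no test between replicates could be run, and the intervals below cover counting error only. Over all peaks the columns held 288659 reads for control input, 267002 for control IP, 214778 for MA input and 359889 for MA IP.

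The label of the cells was set beside marker genes in the authors' expression table. Of 12 neuronal markers, 6 had a mean normalised count of 0 (Map2, Snap25, Nefl, Nefm, Dcx and Prox1), while Syn1 had 710 and Tubb3 473. The 5 fibroblast markers were all detected, with Col3a1 at 134804 and Col1a1 at 100160. Among glial markers, Mog, Olig2, Aqp4 and P2ry12 were at 0 and Tmem119 had 303. These levels go against a neuronal identity for part of the markers, so the cells are called by their line name only.

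The 31 peaks lay on 30 named genes, with 1600014C10Rik holding 2 of them. Most had 2 blocks (25 peaks), 4 had 3 blocks (Ces1d, Cacna1c, Cbl and Mast3), Mmab had 4 and 5830417I10Rik had 5. Between the blocks were 40 gaps, and 38 of these were exact introns of both GENCODE and RefSeq on mm10 (GRCm38), beginning with GT and ending with AG. The gaps ran from 77 bases in Mast3, a microtubule-associated kinase, to 35542 bases in Syne2, which codes for the nuclear envelope protein nesprin-2, with a median of 1704 bases. The 2 gaps that matched no annotated intron were on 1600014C10Rik (265 bases, GT at the start and CC at the end) and Bglap3 (296 bases, GT and GA). Bglap3 is an osteocalcin-related gene, and 11.5% of the 25-base words of its peak also occurred in transcripts of other genes. For 5830417I10Rik this share was 100%, with the words found in transcripts of Gon4l, so the gene name of that peak is uncertain. The share was 0 for the other 29 peaks.

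Exon blocks were often very unequal. The smallest block was under 10 bases in 7 peaks and under 25 bases in 19. Top1mt, the mitochondrial topoisomerase I, had 1 base in exon 4 and 49 bases in exon 5 of 14. Kif18a, a kinesin of chromosome alignment, had 48 bases in exon 6 and 2 bases in exon 7. Slmap was split evenly, with 25 bases on each side of the junction. Whole exons lay inside the peaks with 3 or more blocks, 9 in all, of 24 to 105 bases. Every one of the 31 peaks had a summed block length that is a multiple of 25, from 50 bases (13 peaks) and 75 (6 peaks) up to 250 (Cbl and Cacna1c), whereas the genomic span was a multiple of 25 in 2 of them.

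**Figure D1:**
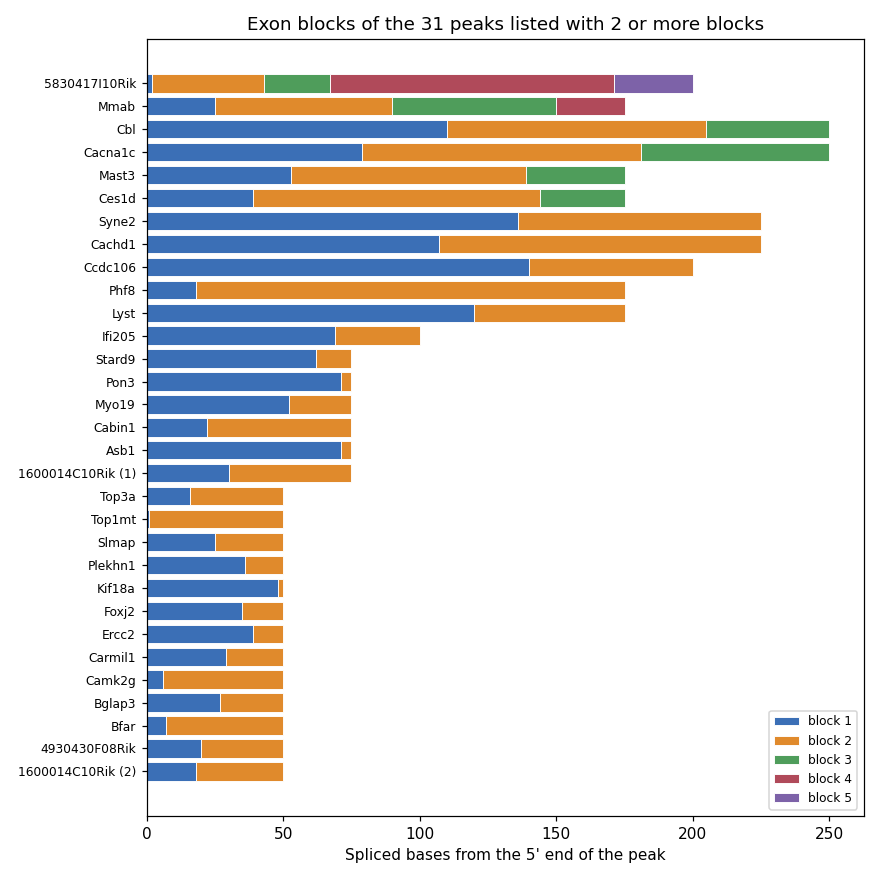
Blocks of each of the 31 peaks laid end to end without the gaps, on an axis of spliced bases from the 5′ end of the peak; each colour is 1 block in 5′ to 3′ order. Most bars end at 50 or 75 bases and many are split far from their middle, as in Top1mt with 1 and 49 bases.

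The block fields did not hold all peaks that run over a junction. Among the 2612 peaks listed as 1 block, 834 contained a whole annotated intron of their strand, and for these the listed block was the entire genomic span. When placed on a transcript, 828 of them had an exonic length, and it was a multiple of 25 in 820, although the span was so in 31. Another 1694 peaks of 1 block lay inside 1 exon. In total 864 peaks held an annotated intron, of which 3.47% were written in blocks. The split peaks are thus compared below with both kinds of unsplit peak. The median span was 1868 bases for the 31 peaks, 2212 for the unsplit peaks holding an intron and 50 for those inside 1 exon. The median exonic lengths were 75, 100 and 50 bases, respectively.

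**Figure D2:**
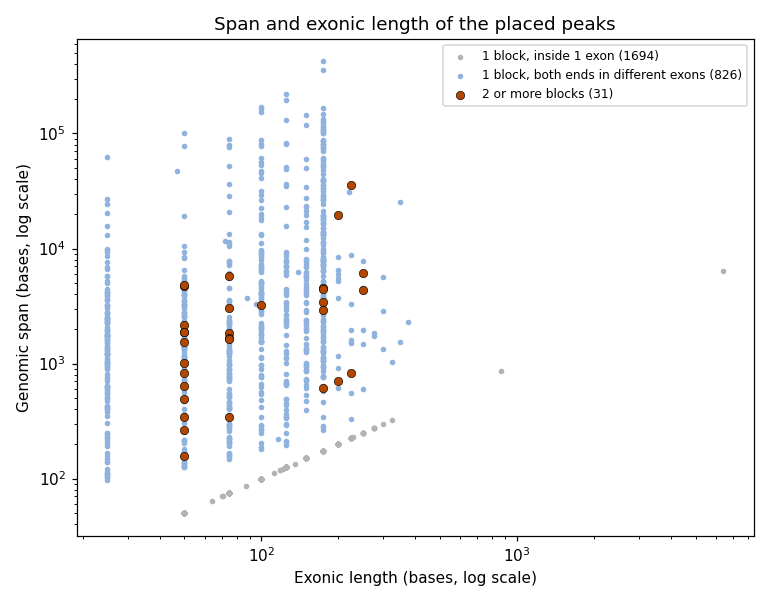
Genomic span against exonic length, both in bases on log axes, for peaks placed on a transcript; 1694 grey points lie inside 1 exon, 826 blue points are listed as 1 block with their ends in different exons, and 31 orange points are listed with 2 or more blocks. The orange points fall in the same columns of 25-base steps and in the same range of spans as the blue ones.

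The junction sequences show what joins the blocks in the mature RNA. The m6A motif DRACH was searched on the transcribed strand only, as A, G or T, then A or G, then A and C, then A, C or T, and GGACT is one of its words. A motif that lies over the junction is made up of bases from both blocks. Such motifs were found in 2 of the 31 peaks (6.45%), Cbl and Plekhn1, beside 70 of 826 unsplit peaks with ends in different exons (8.47%). Below are these junctions and others with a motif close to the joint, chosen because they lie outside UTRs and belong to the peaks with the largest changes, the most blocks or a GGACT. The junction of Syne2, in the 5′ UTR, holds the word AGACA and is not shown. Each is the spliced mm10 sequence 5′ to 3′, with motifs in capitals, and the upstream block ends after base 15 of each.
Cbl, first junction: ctggatacctctaTGACTatgaatagcagc
Plekhn1: gcccctcctgtaccTAACCAGACCgactc
Stard9: tccctagaggtttcgggGGACTctcaag
Cacna1c, first junction: ggatcaAAACAgaaggGAACCtagagcaag
Ces1d, second junction: acctcactaaaattgaatctttttAAACTg
5830417I10Rik, second junction: gagctgtttgAGACTgtgcaatctgtagtc
Lyst: tttctctttgctagggttgttGAACTtagt
Phf8: catggagtcctaaagcccgtgTGACTccaa
Mmab, the third junction: gaagttcttAAACAggctcagtgattacct
In Cbl the word TGACT and in Plekhn1 the word TAACC spanned the joint, and in Stard9 the GGACT followed it after 2 bases. The introns at the Cbl and Plekhn1 joints end with AG. Unspliced RNA thus reads AGACT in Cbl and GAACC in Plekhn1 at the same adenosine, and both are DRACH words. Stard9 lies at chr2:120706894-120712637, Lyst at chr13:13661054-13663994 and Phf8 at chrX:151620942-151625348 on the plus strand, and Cacna1c at chr6:118604496-118610566 and Mmab at chr5:114433334-114436734 on the minus strand. All 5 lie in the CDS.

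Over their whole spliced length, 23 of the 31 peaks (74.2%; 95% Wilson interval 56.8 to 86.3) held at least 1 DRACH, which is close to 74.0% of the 2551 peaks of any kind with an exonic length. At equal length the shares were also set side by side. Of the 13 split peaks of 50 bases, 6 held the motif (46.2%; 23.2 to 70.9), beside 60.3% of 874 peaks inside 1 exon and 73.3% of 131 unsplit peaks holding an intron. Of the 6 split peaks of 75 bases, 5 did, beside 74.6% and 73.3%. The intervals of the split peaks are wide enough to hold most of these values, except that the upper bound for 50 bases is under 73.3%. GGACT was found in 3 peaks (9.68%), on Ces1d, Cacna1c and Stard9, and in 9.02% of all peaks. Ces1d, Cacna1c and Phf8 had the most motifs, 6 each.

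On transcripts, 28 of the 31 peaks could be placed in a coding transcript that has their exact junctions. The midpoint was in the CDS in 24 (85.7%; Wilson interval 68.5 to 94.3), in the 5′ UTR in 4 (1600014C10Rik, Ifi205, Syne2 and Asb1) and in the 3′ UTR in 0, an interval of up to 12.1%. The CDS held 92.3% of unsplit peaks with an intron and 40.7% of those inside 1 exon, and the 3′ UTR held 0.742% and 50.4%. The share of the split peaks was thus nearer to that of the other junction peaks. In all, 3 of the 40 junctions were the last of their transcript, on Ccdc106, Mmab and Phf8, and 5 joined exons 1 and 2. The exons at the junctions were short, with a median of 119 bases, from 24 to 2325. The median GC content was 54.0% in the split peaks and 52.0% in all peaks.

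The host genes were expressed at a range of levels. Over the 33 gene names on these rows, microRNA genes included, the median of the mean normalised counts was 850, from 1.15 to 17713, against 1043 for the 2240 genes with unsplit peaks only. The highest was Syne2. Ccdc106, which codes for a coiled-coil protein, had 24.6, Ifi205, an interferon-activated gene, 57.0, and Bglap3 61.5. None of the 247 genes on 6 lists (m6A writers, erasers and readers, lysosome and V-ATPase, autophagy and mTOR, extracellular matrix and adhesion, spliceosome and RNA processing, aminoacyl-tRNA synthetases) carried a split peak. Of these genes 49 carried a peak, and over all peaks 33 of 2273 gene names with a peak (1.45%) had a split one, and nothing is read from a count of 0 among 49. In 16 of the 49, among which were the autophagy kinase genes Ulk1 and Ulk2, Atg16l1, the protease gene Ctsk and Col4a1, a peak listed as 1 block held an intron. Over all peaks, 801 of 2273 gene names (35.2%) had such a peak. Nothing is read from the 16 about the listed genes.

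The 31 peaks held somewhat more reads in all than the rest. Their reads in the 4 columns together ranged from 104 in Bfar, an apoptosis regulator of the endoplasmic reticulum, to 1245 in Mmab. The median was 291, beside 231 for all unsplit peaks and 265 for those holding an intron. Per 100 exonic bases the medians were 342 for the split peaks, 352 for unsplit peaks holding an intron and 325 for peaks inside 1 exon. At least 20 reads in each of the 4 columns were reached by 28 of 31 (90.3%), against 72.6% of unsplit peaks, and the 3 below were Ifi205, Pon3 and Stard9.

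**Figure D3:**
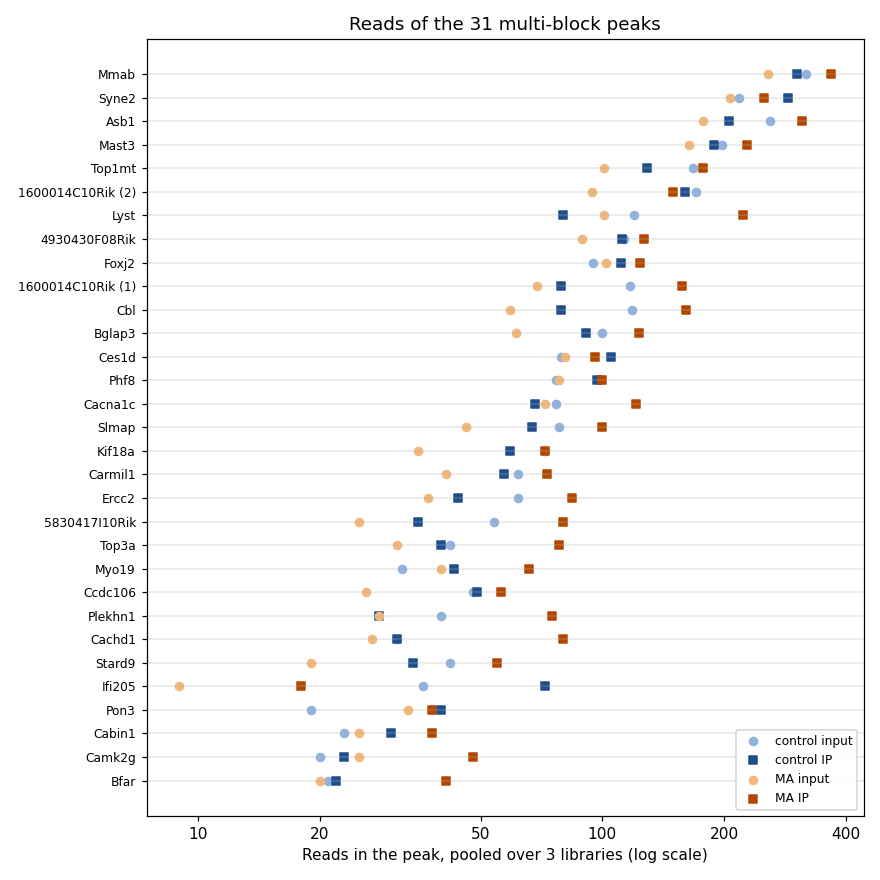
Reads of each of the 31 peaks in control (input, IP) and MA (input, IP), each pooled over 3 libraries, on a log axis and ordered by their sum. Mmab, Syne2 and Asb1 hold the most reads, Ifi205 has only 9 reads in MA input, and MA IP is the highest column in most peaks.

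In the reads as deposited, IP exceeded input in 11 of the 31 peaks in control cells (35.5%) and in all 31 in MA cells. Over all peaks these shares were 44.3% and 96.9%. MA input was below control input in 24 of the 31 (82.1% of all peaks) and MA IP was above control IP in 26 (78.3% of all peaks). Since all 4 columns differ in total and the totals of the libraries were not used here, each column was divided by its own total over all peaks. A ratio of 0 on the log2 scale below is thus the ratio of the whole table, not an absence of enrichment, and a change is relative to all peaks. Without this scaling every change is higher by 0.86.

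Scaled in this way, the IP-to-input ratios of the split peaks were close to those of the table. Their median log2 ratio was 0.03 in control and 0.18 in MA, beside 0.05 and 0.13 for unsplit peaks inside 1 exon and 0.02 and 0.12 for those holding an intron. The lower and upper quartiles of the 31 ran from -0.21 to 0.32 in control and from -0.19 to 0.41 in MA. With all reads of the 31 peaks summed, IP made up 48.8% of control reads (exact interval 47.5 to 50.1) and 63.0% of MA reads (61.8 to 64.3), and the shares over all peaks were 48.1% and 62.6%, inside both intervals. Among the 28 peaks with at least 20 reads in each column, the highest ratio over both treatments was on Cachd1, a modulator of voltage-gated calcium channels (0.61), followed by Top3a, a topoisomerase (0.37), Camk2g, the gamma subunit of calcium/calmodulin-dependent kinase II (0.34), Bfar (0.30) and Plekhn1 (0.28). The lowest were Top1mt (-0.12), Mast3 (-0.11), Mmab (-0.10), the peak of 1600014C10Rik on an annotated intron (-0.09) and 4930430F08Rik (-0.07). The 5 highest held from 104 to 191 reads in all and the 5 lowest from 441 to 1245. This order therefore goes along with depth. For Cachd1 the counting interval of the control ratio alone ran from -0.65 to 0.88. Both ratios were above 0 in 6 of the 31 peaks (21.5% of all peaks) and both below 0 in none of them (8.36% of all peaks).

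**Figure D4:**
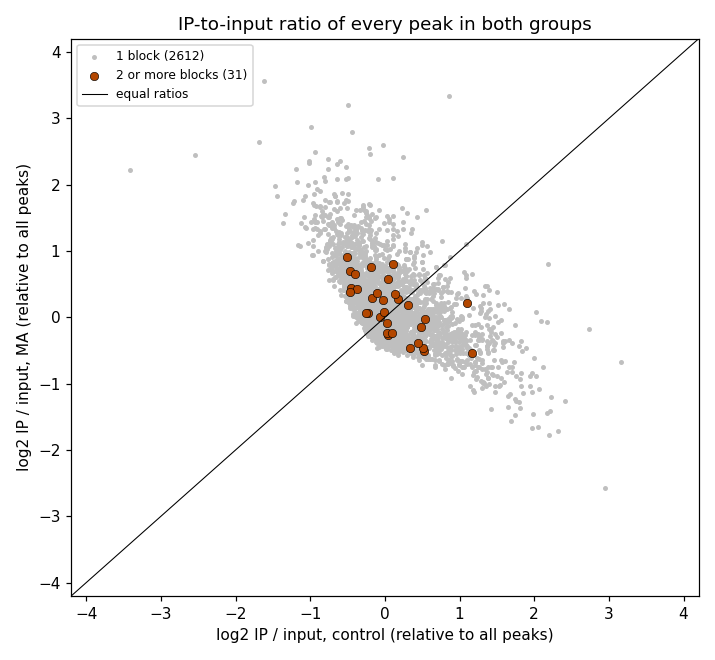
Log2 ratio of IP to input in MA against control for every peak, relative to the whole table, with 2612 unsplit peaks in grey, the 31 split peaks in orange and a line of equal ratios. The orange points lie within the grey cloud, from the upper left (5830417I10Rik, -0.51 in control and 0.91 in MA) to the lower right (Pon3, 1.17 and -0.54).

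The change of the ratio with MA was close to that of other peaks. The median was 0.09 over the 31 peaks, 0.05 over unsplit peaks inside 1 exon and 0.04 over those holding an intron, and 18 of the 31 changes were above 0 (58.1%, against 52.2% of all peaks). Past 2-fold, among the 28 peaks with at least 20 reads in each column, 3 were higher with MA (10.7%) and 1 was lower (3.57%). The background was 11.9% higher and 10.8% lower among the 1925 peaks of the whole table with as many reads. By counting interval, 5 of the 31 lay wholly above 0 (background 22.9%) and 5 wholly below (background 19.7%). None of these counts exceeds its background share. Without the scaling, 14 split peaks were higher past 2-fold and 0 lower, and so were 43.6% and 2.03% of all tested peaks. The median change was -0.10 over the 6 peaks with 3 or more blocks and -0.11 over the 15 with at least 50 reads in each column. Both rest on few peaks, and no change of sign is read from them.

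Among peaks with a higher ratio, 5830417I10Rik had the most. It had 54 input and 35 IP reads in control, and 25 input and 80 IP reads in MA. The IP share thus went from 39.3% to 76.2%, and the log2 change was 1.42 (95% counting interval 0.49 to 2.41). Its 5 blocks of 2, 41, 24, 104 and 29 bases lie at chr3:88788437-88807935 on the plus strand, in exons 4 to 8 of a noncoding transcript of 19 exons. All 25-base words of this peak also occur in transcripts of Gon4l. The gene name and the noncoding placement are therefore both uncertain.

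Cbl codes for an E3 ubiquitin ligase that turns down receptor tyrosine kinases. Its peak at chr9:44154286-44158623, on the minus strand, covers parts of exons 11 and 13 and all 95 bases of exon 12 of 16, all in the CDS. It had 118 input and 79 IP reads in control, and 59 input and 161 IP reads in MA, a change of 1.16 (0.55 to 1.80). Input was lower and IP higher with MA.

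Plekhn1, a pleckstrin homology domain protein, had 40 input and 28 IP reads in control, and 28 input and 75 IP reads in MA. The change was 1.06 (0.07 to 2.09), and MA IP was the highest of the 4 columns. The peak lies in exons 11 and 12 of 15, in the CDS, at chr4:156223068-156223333 on the minus strand.

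The first peak of 1600014C10Rik, the one whose gap is no annotated intron, had 117, 79, 69 and 157 reads (input then IP in control, then input and IP in MA), and a change of 0.89 (0.287 to 1.505). The other peak of this gene, which lies just downstream and joins exons 1 and 2 of 3 over 4706 bases, had 170, 160, 94 and 149 reads and a change of -0.11 (-0.61 to 0.40). The interval of the first lies above 0 and that of the second includes it, and the difference between the peaks was not tested.

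Lyst, the lysosomal trafficking regulator, had 120, 80, 101 and 222 reads in the same order, and a change of 0.86 (0.31 to 1.42). Its peak has 120 bases in exon 17 and 55 in exon 18 of 53, in the CDS. MA IP was the column that stood apart.

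At the other end, Ces1d, a carboxylesterase that hydrolyses lipid esters, was the only peak lower past 2-fold with enough reads. Its 3 blocks at chr8:93181533-93186052 on the minus strand hold the whole exon 7 of 14. It had 79 input and 105 IP reads in control, and 81 input and 96 IP reads in MA, a change of -1.02 (-1.65 to -0.39). As deposited, input was nearly equal in both treatments and IP slightly lower with MA, in a table whose MA IP total is the higher and MA input total the lower.

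Syne2 had the same pattern, with 218 input and 288 IP reads in control, and 207 input and 251 IP reads in MA. The change was -0.98 (-1.36 to -0.60), with the narrowest of the 5 intervals wholly below 0. Its blocks of 136 and 89 bases join exons 1 and 2 of 115 in the 5′ UTR, at chr12:75818343-75854109. The row also carries the name of the microRNA gene Mir5101.

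Phf8, a histone demethylase, had 77, 97, 78 and 100 reads and a change of -0.83 (-1.47 to -0.19). The transcription factor gene Foxj2, whose row also names Mir7231, had 95, 111, 102 and 124 reads and a change of -0.80 (-1.37 to -0.23). In both genes IP exceeded input in either treatment as deposited. The IP share of these reads went from 55.7% to 56.2% in Phf8 and from 53.9% to 54.9% in Foxj2. The lower ratios are thus relative to all peaks, and without the scaling neither share fell.

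Pon3, a paraoxonase, had 19, 40, 33 and 38 reads and a change of -1.71 (-2.86 to -0.61), but fell under the minimum of 20 reads in control input. Its peak has 71 bases in exon 1 and 4 in exon 2 of 9. Ifi205 had 36, 72, 9 and 18 reads, the same IP share of 66.7% in both treatments, and a change of -0.89 (-2.25 to 0.62). In Ifi205 both input and IP reads were lower with MA.

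**Figure D5:**
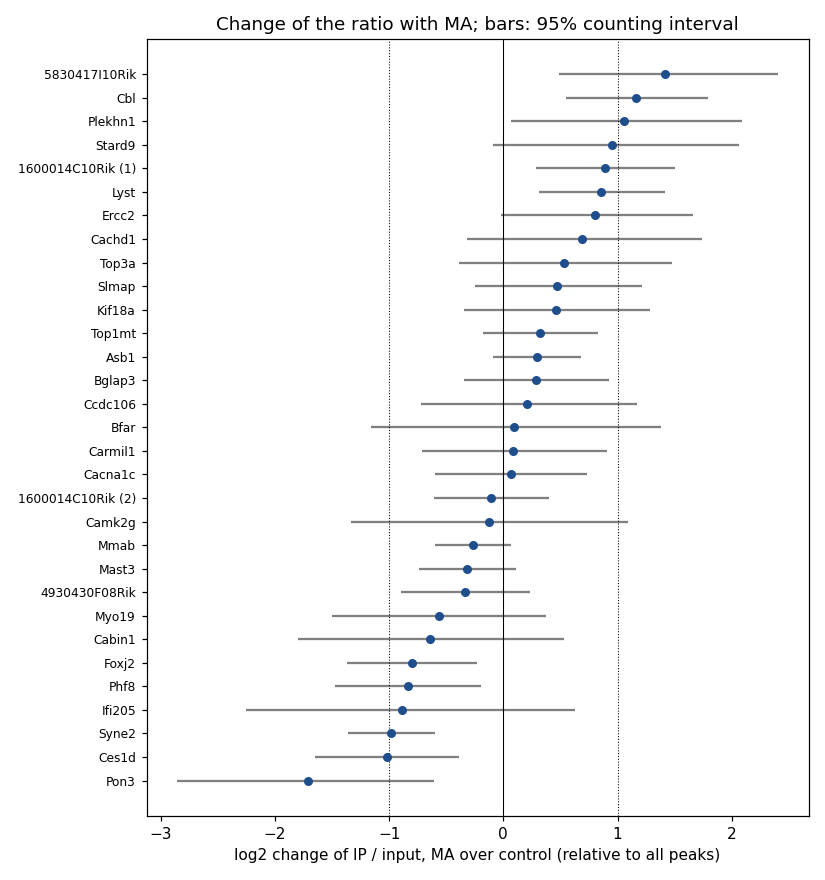
Log2 change of the IP-to-input ratio, MA over control and relative to all peaks, for each of the 31 peaks; points are the values, bars their 95% counting intervals, the solid line 0 and dotted lines 2-fold. The bars of 5 peaks lie wholly above 0 (5830417I10Rik, Cbl, Plekhn1, the first peak of 1600014C10Rik and Lyst) and those of 5 wholly below (Pon3, Ces1d, Syne2, Phf8 and Foxj2).

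The other 21 peaks, Ifi205 and the second peak of 1600014C10Rik among them, had intervals of the change that include 0. Cacna1c, the pore of the L-type calcium channel, had 77, 68, 72 and 121 reads and a change of 0.07 (-0.59 to 0.74). Cachd1 had 31, 31, 27 and 80 reads and a change of 0.69 (-0.32 to 1.74). Camk2g had 20, 23, 25 and 48 reads, and -0.13 (-1.33 to 1.09). Cabin1, which binds and inhibits calcineurin, had 23, 30, 25 and 38 reads, and -0.64 (-1.80 to 0.53). Cachd1 was the highest of these 4 and Cabin1 the lowest, and all 4 intervals overlap.

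Mmab, which makes the active cofactor form of vitamin B12, had 319, 302, 257 and 367 reads, with a change of -0.27 (-0.60 to 0.07). Top1mt had 167, 129, 101 and 177 reads, and 0.32 (-0.18 to 0.83). Myo19, a myosin of the mitochondrial surface, had 32, 43, 40 and 66 reads, and -0.56 (-1.497 to 0.371). Top1mt was above 0 and the others below, with each of the 3 intervals including 0.

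Peaks with many reads had the narrowest intervals. Asb1, of the ankyrin repeat and SOCS box family, had 260, 206, 177 and 312 reads, and 0.29 (-0.09 to 0.68). Mast3 had 198, 189, 164 and 228 reads, and -0.32 (-0.74 to 0.11). In Asb1 and Mast3 a change of 2-fold in either direction lies outside the counting interval. At the low end, Bfar had 21, 22, 20 and 41 reads, and its interval from -1.16 to 1.38 holds 2-fold changes in both directions. Stard9, a kinesin of the centrosome, had 42, 34, 19 and 55 reads and a change of 0.95 (-0.09 to 2.07).

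For the remaining peaks, values were between these. Ercc2, the XPD helicase of nucleotide excision repair, had 62, 44, 37 and 84 reads and a change of 0.80 (-0.02 to 1.66). Top3a had 42, 40, 31 and 78 reads, and 0.53. Kif18a had 72, 59, 35 and 72 reads, and 0.46. These 3 had intervals that reach below 0. Slmap, a membrane protein of the sarcolemma, had 78, 67, 46 and 100 reads, and 0.47. Bglap3 had 100, 91, 61 and 123 reads, and 0.28. Ccdc106 had 48, 49, 26 and 56 reads, and 0.21. Carmil1, a regulator of actin capping protein, had 62, 57, 41 and 73 reads, and 0.09. 4930430F08Rik had 113, 112, 89 and 127 reads, and -0.33.

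Of the 31 split peaks, 24 were the only listed peak of their gene. The whole table holds 2643 peaks on 2273 gene names, so a single listed peak per gene was common. Nothing particular to split peaks is read from this count. Peaks of the study outside this table were not counted. Besides 1600014C10Rik, other peaks were found on Phf8, Asb1, Stard9, Top1mt and Top3a, all listed as 1 block. On Asb1, a peak in the 5′ UTR upstream of the split one had a change of 0.56 (0.14 to 0.99), and another just downstream, with 12, 8, 12 and 48 reads, one of 1.66 (-0.05 to 3.52). Both lie above the 0.29 of the split peak, with intervals that overlap its own. On Stard9, 3 other peaks had changes of 0.04, 0.71 and -0.17, all below the 0.95 of the split peak, and their intervals overlap with its own. On Phf8 a CDS peak had -0.05 (-0.82 to 0.74), beside -0.83 for the split peak at the last junction. Top1mt had a second peak with 0.97 (-0.18 to 2.18) and Top3a one with 0.87 (0.40 to 1.35). None of these differences within a gene was tested.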

How the data were processed

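MeRIP-seq reads of 12 HT22 libraries were trimmed with fastp, aligned to mm10 with HISAT2 and quantified with StringTie, and peaks were called and compared with exomePeak2, according to the study's methods. Versions are not given in the sources used here. The library protocol in the labels used a stranded kit with molecular identifiers, and whether reads were deduplicated or counted by strand is not given in the sources used here. The counts of reads per peak were deposited by the authors as 1 column per group, pooled over 3 libraries. The base mean is a normalised signal deposited by the authors, the mean of counts divided by DESeq2 size factors. Whether IP libraries entered that mean is not given in the sources used here. No other column of the expression table was used. Columns of the authors' own comparisons (fold changes, p-values and log2 ratios) were left out of both tables.

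Samples were grouped by the labels, and the dose and time were taken from the study's methods. The ratio is log2 of IP over input reads with 0.5 added to each, each column divided by its total over all 2643 peaks, and the change is the MA ratio minus the control ratio. Intervals at 95% are exact (Clopper-Pearson for an IP share, conditional odds ratio for a change) or Wilson for shares of peaks. Since columns are pooled, the planned count model could not be run and no p-value is given. Coordinates of the table count from 0 and are given from 1. Peaks were placed on GENCODE M21 transcripts, coding ones first, and sequences were read from the RefSeq genome GRCm38. Words of 25 bases were searched in transcripts of other genes. The intervals and ratios were tested on simulated data.

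All 31 peaks are described, and those with the most blocks or reads, the widest span or the most extreme ratio or change are given in full. The members and gene lists were chosen with earlier results of these data known. Alternatives covered scaling, the added count, minimum reads, the fold, block number and size, and 1 peak per gene. Comparing peaks inside 1 exon and peaks holding an intron apart was added after seeing the data. The tools were scipy 1.17.1 for intervals, pysam 0.24.0 for sequences and matplotlib 3.10.9 for plots, with pandas 2.3.3 and numpy 2.4.6 under Python 3.11.15.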

Additional observations from a re-analysis of the deposited data

How the results depend on the processing

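No paired analysis was possible because reads are pooled over the libraries of a group, and for the same reason no replicate could be left out. The scaling moved the values most. Without it, the median MA ratio was 0.93 and the median change 0.95, with 14 peaks higher past 2-fold and 0 lower. Among the 1925 peaks of the whole table with at least 20 reads in each column, 839 were then higher and 39 lower. With scaling these counts were 230 and 207. Of the calls among these tested peaks, 95.6% were higher without scaling, against 52.6% with it. Centring on the median of all peaks gave 2 lower. Peaks with 3 or more blocks had a median MA ratio of -0.12. With a smallest block of at least 25 bases, 1 peak was higher. With no minimum of reads, 2 were lower, Pon3 being added. With at least 50 reads in each column, the median MA ratio was -0.083 and 1 peak was higher. At 1.5-fold 7 were higher and 5 lower, and at 3-fold 0 and 0. Taking any peak that holds a whole annotated intron gave 864 peaks in place of 31. The median change was -0.10 with 3 or more blocks (6 peaks) and -0.11 with at least 50 reads (15 peaks), in place of 0.09. The cause of these shifts was not tested, beyond the smaller number of peaks that a stricter filter leaves. Depth limits single peaks: with 104 reads in all, the interval for Bfar runs from -1.16 to 1.38.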
